A study of Rattus norvegicus and Ovis aries with 113 samples.

Results

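Tissue from the pons, a part of the brainstem, was compared with tissue from the cerebellum of the same sheep, which asks how gene expression differs between neighbouring parts of the hindbrain. The 10 libraries, 5 of pons and 5 of cerebellum, were chosen by their labels and are 10 of the 113 libraries of the series, which also covers other sheep brain regions, sheep sperm and rat tissues. All of them came from male sheep (Ovis aries), 5 animals past puberty that received no specific treatment, and the study used tissue of the same hemisphere for the sheep. The animals carry the numbers 687, 688, 690, 694 and 699, and each gave 1 library of either tissue. Every run of 5 values below follows that order of animals. The breed, and the level of the brainstem at which each pons was cut, are unstated in those labels. The libraries are paired by animal, so a p-value here measures the spread of the difference between the tissues over 5 sheep.

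The pons holds the pontine nuclei, whose glutamatergic mossy fibres carry signals from the cerebral cortex to the cerebellum. It also holds cholinergic motor nuclei of cranial nerves, serotonin neurons of the raphe, noradrenaline neurons of the locus coeruleus and thick bundles of myelinated axons. The cerebellum is mostly a cortex in which very many small granule cells excite Purkinje cells, its only output neurons, under the control of GABA interneurons. Both parts form from the embryonic hindbrain. The cerebellum comes from its front segment, which lacks HOX gene expression, and the segments behind it express HOX genes of rising number from front to back.

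Library totals lay between 49821187 and 59402538 counts. Values are given as CPM, a gene's counts relative to the total of its library, with totals scaled by trimmed mean of M values (TMM) factors. Log-scale correlations between libraries were 0.987 to 0.9905 within the cerebellum, 0.948 to 0.983 within the pons and 0.853 to 0.9205 between the tissues. The pons libraries differed more among themselves: the SD over animals was larger in pons than in cerebellum for 75.0% of the 19182 genes tested. All 9 genes taken as markers of the cerebellum were called higher there. Of 9 pons markers, 5 could be tested, 4 were called higher in pons, and 1, SLC6A5, was not called. At 1 CPM or more, the pons libraries held 5, 9, 8, 6 and 2 of these 9 markers, and the cerebellum libraries 1, 2, 2, 2 and 2. Pons 699 thus held the fewest of these markers, as many as 4 of the cerebellum libraries did, and pons 687 and 694 held fewer than 688 and 690. Counts are also given without animals 694 and 699, whose pons libraries held little of HOX groups 2 to 5. Of 7 forebrain markers, 2 reached 1 CPM in pons 694, among them EMX2 (2.29 CPM), and none did in the other 9 libraries. Mitochondrial entries held 17.2% ± 3.69 (SD, n = 5) of the counts in pons and 10.5% ± 2.03 (SD, n = 5) in cerebellum, higher in pons in 5 of 5 animals (exact paired permutation test, two-sided p = 0.0625, the smallest that 5 pairs allow).

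In the comparison across all genes, 3811 were called higher in pons and 2389 higher in cerebellum, which is 19.9% and 12.5% of the genes tested and 32.3% together. These shares are the background for the counts of calls per list below. A call needed a Benjamini-Hochberg adjusted p below 0.05 in edgeR's quasi-likelihood test, with animal as a block, together with a 2-fold difference or more, that is 1 on the log2 scale. The groups did not overlap for 5266 of the called genes, 27.5% of those tested. Called or not, 8651 of the 19182 genes tested had groups that did not overlap. The median log2 fold change, pons over cerebellum, was 0.02 over all genes tested. Without animals 694 and 699, 3364 genes were called higher in pons and 2390 higher in cerebellum. Upper quartile scaling moved the median gene by 0.11 on the log2 scale toward pons and gave 4160 and 2123 calls.

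The largest differences toward the cerebellum were in genes of its own neurons. GABRA6, a GABA-A receptor subunit of granule cells, stood at 325, 302, 309, 286 and 269 CPM in cerebellum and at 0.48, 2.49, 3.20, 2.33 and 0.33 CPM in pons. Its groups lay far apart (log2 fold change -7.72 ± 0.60, SE; edgeR adjusted p = 7.97e-05). NEUROD1, a transcription factor that drives granule cell differentiation, had a log2 fold change of -7.39, and CBLN3, a cerebellin secreted by granule cells, one of -6.99. EOMES, a marker of unipolar brush cells, averaged 47.4 CPM ± 15.0 (SD, n = 5) in cerebellum and 0.30 CPM ± 0.21 (SD, n = 5) in pons (log2 -7.30). UNC45B, a myosin chaperone, and SERPINA1, a protease inhibitor, had log2 fold changes of -6.95 and -6.83. BARHL2, PLK5, CDH15, CALB1 and FAT2 were also among the 12 largest, at log2 values from -6.61 to -6.26. Without animal 690, SERPINA1 stood at -7.56.

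Among the 12 largest differences toward the pons, the leading genes had uneven pons values. SNCG, which encodes gamma-synuclein, a protein of neurofilament-rich neurons, was at 4.27, 42.3, 246, 26.4 and 9.65 CPM in pons and at 0.22 to 0.37 CPM in cerebellum. Animal 690 was far above the other pons libraries, yet all 5 exceeded every cerebellum library (log2 fold change 6.62 ± 0.83, SE; edgeR adjusted p = 0.000431). Its log2 fold change was 5.71 without animal 690 and 7.22 without 687. CBLN2, a cerebellin of neurons outside the cerebellar cortex, had 75.9, 18.7, 16.5, 31.2 and 4.63 CPM in pons, and at most 0.40 CPM in cerebellum (log2 6.57 ± 0.40, SE; edgeR adjusted p = 4.43e-05). ECEL1, an endopeptidase-like enzyme of motor and other neurons, ARHGAP36, ADGRD2, CAPN6 and CTXND1 had log2 fold changes of 6.39, 5.78, 5.46, 5.18 and 5.18. Each of these moved by more than 1.5-fold when 1 animal was left out: ECEL1 to 7.23 without 687 and 5.78 without 690, ARHGAP36 to 4.94 and CAPN6 to 5.85 without 690, ADGRD2 to 6.19 without 688 and CTXND1 to 4.54 without 687. COL22A1, a collagen chain, GPC5, a glypican, SLC14A1, a urea transporter of astrocytes, MEIS2, a partner of HOX proteins, and RASSF9 had log2 values between 4.26 and 4.77. RASSF9 was among the most even, at 13.7 CPM ± 2.33 (SD, n = 5) in pons and 0.75 CPM ± 0.35 (SD, n = 5) in cerebellum.

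By abundance, the genes called higher in pons with the most counts included 3 of glia. These were MBP, a main protein of compact myelin, GFAP, the astrocyte filament, and MOBP, a further myelin protein. EEF1A1, a translation elongation factor of most cells, was also among the most abundant. On the cerebellar side the most abundant were SNAP25, a synaptic fusion protein, ALDOC, an aldolase of Purkinje cells and astrocytes, EEF1A2 and EEF2, elongation factors, and CPLX2, a complexin. EEF1A1 had 4377, 4848, 4883, 3688 and 5568 CPM in pons and 1885, 2448, 2395, 2469 and 1921 CPM in cerebellum (log2 1.07 ± 0.19, SE). EEF1A2, the form of neurons and muscle, went the other way, with 588, 425, 911, 508 and 123 CPM in pons and 1668, 1895, 1577, 1628 and 2038 CPM in cerebellum (log2 -1.99 ± 0.44, SE). Without animal 699 the log2 fold change of EEF1A1 was 0.95 and that of ALDOC -0.88, under the threshold of a call.

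**Figure D1:**
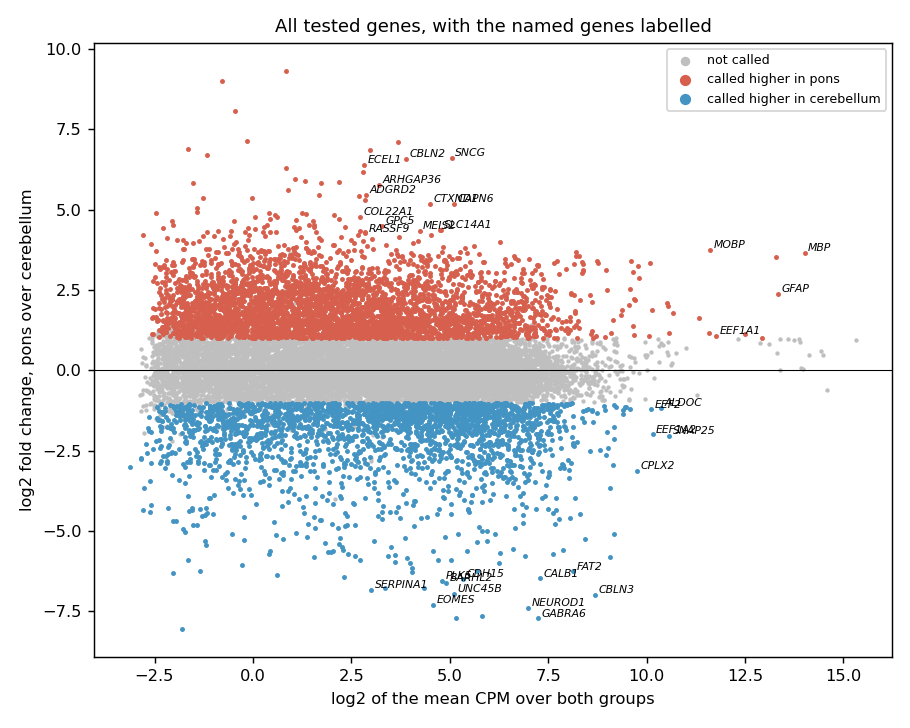
Each point is 1 of the 19182 genes tested, by the log2 of its mean CPM over both groups (x axis) and its log2 fold change, pons over cerebellum (y axis). Red points were called higher in pons (3811), blue points higher in cerebellum (2389) and grey points were not called, and the genes named above are labelled.

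HOX genes, the transcription factors that give hindbrain and spinal segments their identity, divided the pons libraries. Of 38 HOX genes in the table, 13 had 0 counts in all 10 libraries, and 4 passed the low-count filter. All 4, HOXD1, HOXB2 and HOXD3 among them, were called higher in pons. They passed only because pons was high, so their count is no support for the set. HOXD1 was at 5.37, 4.10, 6.45, 2.05 and 7.91 CPM in pons, with the highest cerebellum library at 0.65 CPM, so that all 5 pons libraries lay above the cerebellum.

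The groups behind these differed between animals. HOXB2 was at 5.58, 4.46, 9.51, 0.49 and 0.68 CPM in pons and up to 0.17 CPM in cerebellum (log2 4.68 ± 0.59, SE; 5.31 without 699). HOXA2 was at 4.61, 5.44, 9.31, 0.14 and 0.45 CPM, and HOXA4 at 12.6, 4.04, 17.2, 0.02 and 0.27 CPM. Pons 687, 688 and 690 carried these genes, and pons 694 and 699 were near the cerebellum. HOXB5 was at 0.09, 1.16, 28.4, 0.09 and 0 CPM, so that animal 690 alone held most of it. HOXB6 showed the same order on a lower level, with 4.52 CPM in 690 and 0.16 CPM in 688. Summed over the 11 genes of HOX groups 2 to 5, the pons libraries held 41.3, 25.7, 138, 1.81 and 3.24 CPM and the cerebellum libraries 0.24 to 0.73 CPM. The 24 genes of groups 6 to 13 summed to 6.45 CPM in pons 690 and to at most 0.45 CPM in every other library. With no low-count filter 15 HOX genes were called and with DESeq2 12, all of them higher in pons. Without animals 694 and 699 the count was 12, but these animals were chosen by their low HOX values, so this count is no support for the set.

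**Figure D2:**
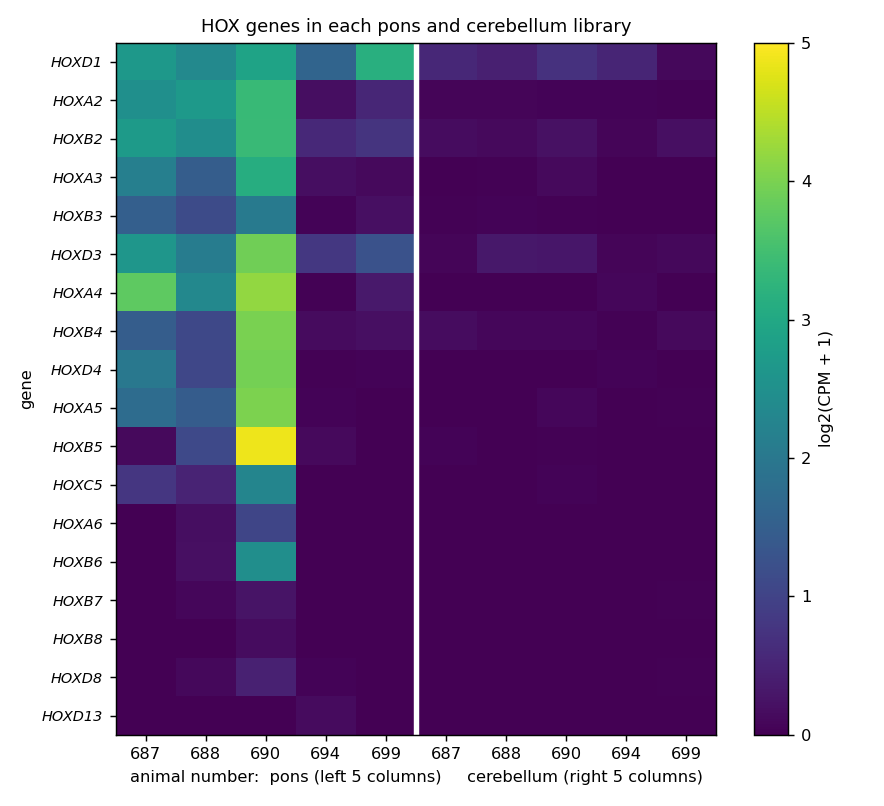
Rows are 18 HOX genes that reached 0.1 CPM in any library, from group 1 at the top to group 13 at the bottom, columns are the 5 pons and 5 cerebellum libraries by animal, and colour is log2(CPM + 1). HOXD1 appears in all 5 pons libraries, groups 2 to 5 in pons 687, 688 and 690, and HOXB6 mainly in pons 690.

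Among the other patterning genes of the hindbrain, 36 of 45 were tested, 12 were called higher in pons and 14 higher in cerebellum. ZIC1, ZIC2, ZIC4 and ZIC5, factors that act in granule cells and their precursors, were called higher in cerebellum. ZIC1 was at 62.5, 21.8, 13.2, 21.1 and 4.16 CPM in pons and at 678, 654, 587, 770 and 676 CPM in cerebellum (log2 -5.24 ± 0.55, SE; edgeR adjusted p = 0.000209). ZIC2, ZIC4 and ZIC5 had log2 fold changes of -4.30, -5.69 and -4.11. PAX6, a factor of granule cells and pontine neurons, was at 10.3 to 20.4 CPM in pons and 90.8 to 129 CPM in cerebellum (log2 -2.88). PTF1A, which specifies GABA neurons of the cerebellum, was at 0.26 to 0.95 CPM in cerebellum and at most 0.08 CPM in pons (log2 -4.27).

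Called higher in pons were, among others, PAX8 (log2 4.84), GBX2 (4.78), PAX5 (4.47), NKX6-1 (3.82), NKX6-2 (3.21) and MEIS2 (4.35 ± 1.04, SE; 3.53 without 694 and 5.16 without 699). MEIS2 was at 17.6, 39.1, 46.4, 59.4 and 12.7 CPM in pons and at 1.58, 1.32, 1.58, 0.10 and 8.32 CPM in cerebellum. Without animal 699, PAX5 and GBX2 stood at 5.25 and 5.42, and GBX2 was at 4.17 without 690.

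Among the pons libraries, EN1 and EN2, genes of the midbrain-hindbrain boundary, and a midbrain score were highest in 694 and 699. Other genes of these regions did not share this order. LHX9, OTX2 and EVX2, given below, were high in 694 alone of the pons libraries. GBX2 and PAX5 had larger log2 fold changes without animal 699 (5.42 and 5.25) than with all animals (4.78 and 4.47). A list of 7 midbrain genes, chosen after the data were seen, had a mean log2(CPM + 1) of 1.07 in pons 694 and 1.01 in pons 699. The other pons libraries were at 0.10 to 0.35 and the cerebellum libraries at 0.06 to 0.32. The list holds LHX9 and SLC6A3, which were high only in pons 694 (27.6 CPM) and only in pons 699 (21.2 CPM). These scores are therefore no support for the set. EN2, an engrailed factor of that boundary and of the cerebellum, was at 0.41, 1.16, 1.23, 26.5 and 3.83 CPM in pons and at 166, 141, 126, 152 and 150 CPM in cerebellum (log2 -6.00 ± 0.88, SE; -6.80 without 694). EN1 was at 0.37, 0.41, 0.52, 20.5 and 6.97 CPM in pons and at 8.13, 11.7, 12.8, 0.14 and 18.7 CPM in cerebellum. The groups of EN1 overlapped and it was not called (log2 -2.74 ± 1.64, SE; edgeR adjusted p = 0.188). Pons 699 was the second highest pons library for both genes. In animal 694 the order of the tissues for EN1 was the reverse of that in the other 4. LHX9 was at 27.6 CPM in pons 694 and at most 0.75 CPM in any other library, OTX2 at 15.3 CPM there against 0.39 to 1.31 CPM in the other pons libraries, and EVX2 at 5.42 CPM against at most 0.20 CPM. OTX2 is also made by choroid plexus and by some granule cells, and cerebellum 694 held 33.1 CPM of it.

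Granule cell genes were nearly all higher in cerebellum. Of 19 tested, 18 were called higher in cerebellum and 0 higher in pons, with a median log2 fold change of -5.31 beside 0.02 over all genes. CBLN1, the cerebellin by which granule cell axons bind Purkinje cells, was at 1133, 1054, 875, 1087 and 1118 CPM in cerebellum and at 19.6, 17.1, 15.9, 34.3 and 12.3 CPM in pons (log2 -5.82 ± 0.26, SE; edgeR adjusted p = 2.57e-05). CBLN3, GABRD, a GABA-A subunit of tonic inhibition, GRM4, a presynaptic glutamate receptor, and GRIN2C, an NMDA receptor subunit, had log2 fold changes of -6.99, -5.78, -5.71 and -5.31. RELN, the secreted guidance protein, was at -4.35. In bulk tissue, fewer cells of a type and less RNA per cell cannot be told apart. BARHL1, a factor of granule and pontine precursors, was the member not called: it was at 10.8, 2.10, 0.08, 4.20 and 0.31 CPM in pons and at 5.97 to 21.1 CPM in cerebellum (edgeR adjusted p = 0.0687).

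Purkinje cell genes followed, with 21 of 24 called higher in cerebellum and 0 higher in pons (median log2 -2.60). CALB1, a calcium buffer, was at 485, 208, 329, 239 and 282 CPM in cerebellum and at 1.01, 5.66, 5.47, 9.15 and 0.86 CPM in pons (log2 -6.47 ± 0.76, SE; edgeR adjusted p = 0.000322). PCP2, CA8 and SKOR2, 3 genes with little expression elsewhere in the brain, had log2 fold changes of -6.25, -5.60 and -5.07 (CA8 -5.00 without 687, SKOR2 -5.81 without 690). ITPR1, a calcium release channel, was at -2.34. Cerebellum 687 was the highest of its group for CALB1, CA8, ITPR1 and SKOR2. PLCB3, DNER and LHX5 were the members not called, at log2 0.39, -0.32 and -1.66.

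Of 14 genes of the remaining cerebellar cells, 9 were called higher in cerebellum and 2 higher in pons. TFAP2A and TFAP2B, factors of cerebellar interneurons, were at log2 -3.64 and -4.08 (TFAP2B -4.91 without 694 and -3.38 without 687). PVALB, a calcium buffer of interneurons and Purkinje cells, was at 114, 113, 110, 79.4 and 125 CPM in cerebellum and at 29.1, 18.9, 18.1, 17.6 and 6.42 CPM in pons (log2 -2.69). The 2 called higher in pons were HOPX (log2 1.82), which Bergmann glia share with other astrocytes, and CALB2, calretinin. CALB2 was at 96.9, 59.5, 46.5, 265 and 19.9 CPM in pons and at 3.24, 5.47, 6.24, 2.52 and 27.6 CPM in cerebellum, so the groups overlapped in animal 699. The difference was 3.61 ± 1.01 on the log2 scale (SE; edgeR adjusted p = 0.0169), and the call ended without animal 688 (edgeR adjusted p = 0.0607). Its log2 fold change was 2.81 without 694 and 4.42 without 699.

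Cholinergic and cranial motor genes were concentrated in pons 690 and 688. CHAT, which makes acetylcholine, was at 0, 9.70, 63.0, 2.08 and 0.59 CPM in pons and at most 0.16 CPM in cerebellum. SLC18A3, the vesicular acetylcholine transporter, was at 0, 13.2, 69.6, 1.34 and 0.31 CPM. SLC5A7, the choline transporter, was at 3.10, 59.7, 202, 5.70 and 1.56 CPM in pons and at 0.51 to 1.45 CPM in cerebellum. These genes share 1 order of animals, 690 above 688 above 694 and the remaining 2. Peripherin (PRPH), a filament of motor axons, was at 0.02, 41.8, 384, 3.27 and 0.59 CPM, and CALCA, which encodes CGRP, at 0.37, 35.7, 90.4, 1.02 and 0.29 CPM. ISL1 and TBX20, transcription factors of cranial motor neurons, reached 8.60 and 7.13 CPM in 690 and 1.91 and 7.46 CPM in 688, with at most 0.23 CPM in the other pons libraries.

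Only 3 of the 13 cholinergic and motor genes passed the low-count filter, and 2 of them were called higher in pons. CALCA passed only because pons was high, so this count is no support for the set. SLC5A7 was at log2 3.70 ± 1.21 (SE; edgeR adjusted p = 0.0317), and its call ended without animal 688, 690 or 694, at edgeR adjusted p = 0.0968, 0.0712 and 0.0683. Its log2 fold change ran from 2.64 without 690 to 4.66 without 699. CALCA was at 7.11 ± 0.83 (SE; edgeR adjusted p = 0.000321), and at 5.97 without 690, 6.23 without 688 and 7.76 without 694. ACHE, which breaks down acetylcholine, was not called (log2 1.05 ± 0.52, SE). With no low-count filter 10 of the 13 were called, and with DESeq2 11, all higher in pons.

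Noradrenaline genes were highest in pons 694 and 688, a different pair of animals. DBH, which makes noradrenaline from dopamine, was at 1.26, 7.60, 0.84, 15.8 and 0.76 CPM in pons and at 0.10 to 0.13 CPM in cerebellum (log2 4.52 ± 0.78, SE; edgeR adjusted p = 0.00187; 3.69 without 694). SLC6A2, the noradrenaline transporter, was at 0.16, 16.7, 0.30, 16.9 and 0.76 CPM. TH, which makes the precursor of all catecholamines, was at 0.18, 7.99, 0.46, 10.3 and 24.2 CPM, with 0 counts in cerebellum. Against a floor of 3 counts over the 5 cerebellum libraries together (0.0097 CPM), the pons mean of TH was at least 894-fold higher. All 3 genes were high in 688 and 694, but in pons 699 TH was the highest of all while DBH and SLC6A2 were both at 0.76 CPM. SLC6A3, the dopamine transporter, was at 21.2 CPM in pons 699 and at most 0.68 CPM in the other 9 libraries. Of 11 noradrenaline genes 7 were tested, and 5 were called higher in pons and 0 higher in cerebellum, against 19.9% and 12.5% of all genes. DBH passed the low-count filter only because pons was high, so this count is no support for the set.

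Serotonin genes were present in 4 of the pons libraries and low in pons 687. TPH2, the serotonin-making enzyme of neurons, was at 0.80, 5.05, 23.5, 2.80 and 14.4 CPM in pons and at 0.33 to 0.55 CPM in cerebellum (log2 3.67 ± 0.72, SE; edgeR adjusted p = 0.00334; 4.29 without 687 and 3.06 without 690). Every pons library lay above every cerebellum library. SLC6A4, the serotonin transporter, was at 0.25, 0.69, 4.64, 0.75 and 2.77 CPM in pons and at 0.13 to 0.53 CPM in cerebellum, with overlap (log2 2.10 ± 0.73, SE; edgeR adjusted p = 0.0389). Its call ended without animal 688, 690, 694 or 699 (edgeR adjusted p = 0.109, 0.128, 0.0539 and 0.0987). FEV, the factor that specifies these neurons, was not tested and reached 1.25 CPM in pons 690. LMX1B, a factor that serotonin neurons need, was at 0.07 CPM in 687 and at 2.10 to 3.63 CPM in the other 4 (log2 3.69; 4.47 without 687). Of the 12 genes, 11 were tested, 10 were called higher in pons and 0 higher in cerebellum, against 19.9% and 12.5% of all genes. DDC, SLC18A2 and GCH1, which serve all monoamine neurons, were called at log2 3.08, 2.34 and 2.2 and belong to the noradrenaline genes as well.

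**Figure D3:**
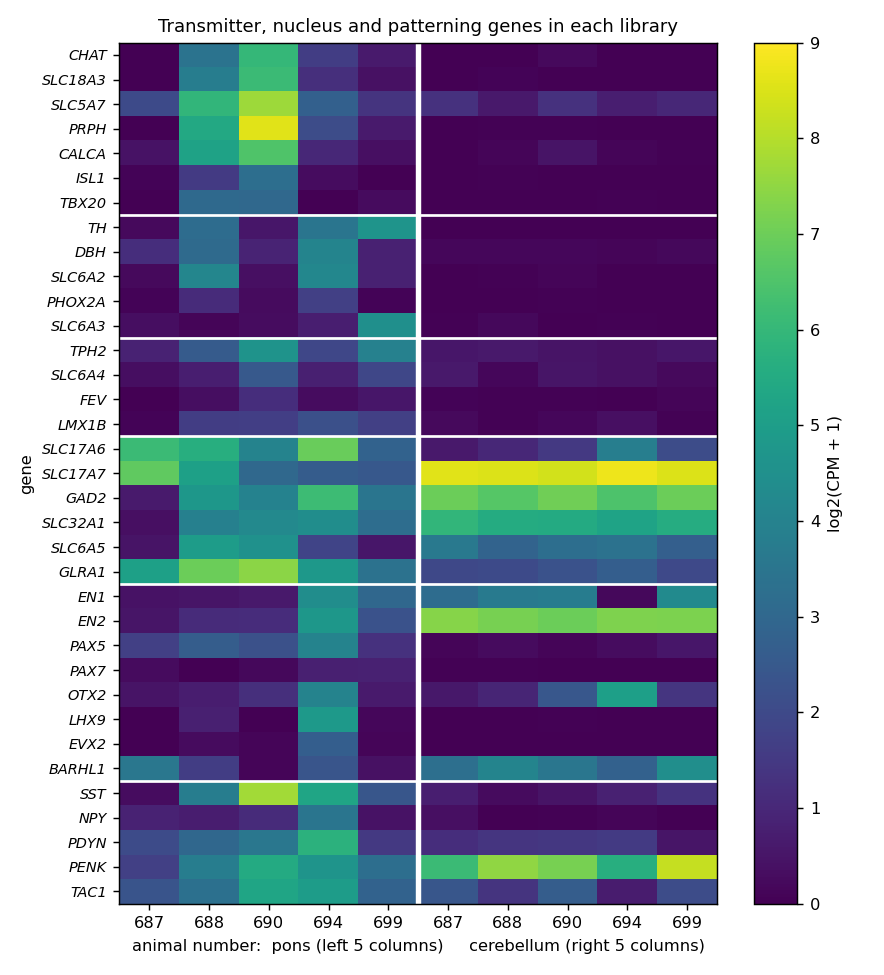
Rows are genes in blocks from top to bottom (cholinergic and motor, catecholamine, serotonin, fast transmitters, patterning, neuropeptides), columns are the 5 pons and 5 cerebellum libraries by animal, and colour is log2(CPM + 1). The cerebellum columns look alike, while each pons column has its own pattern, for example CHAT at 63.0 CPM in 690, SLC6A3 at 21.2 CPM in 699 and LHX9 at 27.6 CPM in 694.

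The vesicular glutamate transporters SLC17A7 and SLC17A6 differed in opposite directions. SLC17A7 (VGLUT1), the transporter of granule cells and of pontine neurons, was at 383, 363, 330, 436 and 370 CPM in cerebellum and at 111, 33.6, 7.26, 5.16 and 4.51 CPM in pons (log2 -4.79 ± 0.80, SE; edgeR adjusted p = 0.00163; -5.47 without 687). SLC17A6 (VGLUT2), the usual form of the brainstem, was at 69.2, 49.2, 15.1, 123 and 6.11 CPM in pons and at 0.53, 1.01, 1.85, 13.4 and 3.25 CPM in cerebellum (log2 3.84 ± 0.87, SE; edgeR adjusted p = 0.00652; 4.55 without 699 and 3.15 without 687). Every pons library held both transporters, and in pons 687 SLC17A7 exceeded SLC17A6. In cerebellum 694, its highest, SLC17A6 exceeded pons 699. Pons 687 stood out by its SLC17A7, and it also had, of the pons libraries, the most BARHL1, ZIC1, NEUROD2 (13.8 CPM against 0.68 to 4.77 CPM) and CBLN2. GLS2, a glutaminase, was called higher in cerebellum (log2 -2.28).

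Of 6 genes of GABA synthesis and transport, 2 were called higher in cerebellum, 2 higher in pons and 2 were not called. The 2 higher in cerebellum, GAD2 and SLC32A1, were lowest in pons 687. GAD2, which makes GABA, was at 0.55, 25.9, 15.1, 71.8 and 10.2 CPM in pons and at 124, 98.2, 132, 89.4 and 124 CPM in cerebellum (log2 -3.04 ± 0.93, SE; edgeR adjusted p = 0.0246). SLC32A1, the vesicular transporter of GABA and glycine, was at 0.30, 14.2, 17.8, 20.1 and 8.28 CPM in pons and at 36.4 to 59.6 CPM in cerebellum (log2 -2.27 ± 0.81, SE; edgeR adjusted p = 0.0428). Neither gene overlapped between the groups. Both calls ended without animal 688, 690 or 699 (edgeR adjusted p = 0.0516, 0.0657 and 0.0575 for GAD2, and 0.0916, 0.0603 and 0.0814 for SLC32A1), and without 687 the log2 fold changes were -2.28 and -1.58. GAD2 was at -3.79 without 694. SLC6A11, a GABA transporter of astrocytes, and SLC6A13, a further GABA transporter, were called higher in pons (log2 1.88 and 1.00). The call of SLC6A13 ended without animal 687, 690, 694 or 699 (edgeR adjusted p = 0.0911, 0.0637, 0.107 and 0.0582).

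Glycine is the second inhibitory transmitter of the brainstem. SLC6A5, the transporter of glycine neurons, was at 0.39, 30.6, 22.6, 2.55 and 0.47 CPM in pons and at 11.3, 6.27, 8.46, 9.55 and 5.67 CPM in cerebellum, where Golgi cells release glycine. It was higher than cerebellum in animals 688 and 690 and lower in the other 3, and was not called (log2 -1.23 ± 1.20, SE; edgeR adjusted p = 0.412). GLRA1, the adult receptor subunit, was higher in every pons library, at 33.9, 125, 172, 26.5 and 9.57 CPM against 2.88, 3.02, 3.78, 5.52 and 2.97 CPM (log2 3.68 ± 0.65, SE; edgeR adjusted p = 0.00212). GLRA2 was called higher in pons as well (log2 2.71), GLRB was not called (-0.40), and GPHN, the scaffold gephyrin, was called higher in cerebellum (-1.28). Of the 8 glycine genes, 4 were called higher in pons and 2 higher in cerebellum, against 19.9% and 12.5% of all genes.

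Receptors of fast transmission split by subunit. Among 16 GABA-A subunits tested, GABRA6, GABRD, GABRB2 (log2 -2.47) and GABRA4 (-1.76) were among those called higher in cerebellum, and GABRQ (3.20), GABRA5 (2.76), GABRA3 (1.38) and GABRB1 (1.11) higher in pons. GABRB1 fell under the threshold without animal 699 (log2 0.91). Of 18 ionotropic glutamate receptor genes, 7 were called higher in cerebellum and 3 higher in pons. Those of cerebellum included GRIN2C, GRIN2A (log2 -3.01), GRIN1 (-2.41) and GRIA4 (-2.04). GRIA3 (1.72), GRIK3 (1.72) and GRIN3A (1.41) were higher in pons. Of 7 metabotropic receptors tested, 3 were called higher in cerebellum, GRM4 and GRM2 (-3.32) among them, and GRM7 (3.24) higher in pons. GRM7 was at 77.4, 65.2, 48.5, 40.2 and 148 CPM in pons and 5.38 to 9.10 CPM in cerebellum, and its highest library was 699.

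Cerebellins and C1q-like proteins link presynaptic neurexins to postsynaptic receptors, and their members differed in direction. CBLN1 and CBLN3 were called higher in cerebellum and CBLN2 higher in pons, as given above. C1QL1, made by the inferior olive and other neurons, was at 13.7 to 20.8 CPM in pons and 2.92 to 7.46 CPM in cerebellum (log2 1.89), and C1QL2 was at log2 2.43. The neurexins NRXN2 and NRXN3 were called higher in cerebellum (log2 -1.34 and -3.12), while GRID1 was not called (0.75). In total, 6 of the 13 tested members were called higher in cerebellum and 4 higher in pons.

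Neuropeptide genes were uneven between the pons libraries. Of 39 genes, 18 were tested, 9 were called higher in pons, and 1, PENK, was called higher in cerebellum. Some of the 18, such as CALCA, passed the low-count filter only because pons was high, so this count is no support for the set. Over all genes tested, 19.9% were called higher in pons and 12.5% higher in cerebellum. Without animal 688 or 690 there were 4 called higher in pons. As a mean of log2(CPM + 1) on plain library totals, the list stood at 0.70, 1.29, 1.77, 1.58 and 0.66 in pons and at 0.74 to 0.91 in cerebellum. It was thus higher in pons in animals 688, 690 and 694 and lower in 687 and 699. SST, somatostatin, was at 0.23, 13.2, 214, 37.8 and 4.33 CPM in pons and at 0.21 to 1.52 CPM in cerebellum (log2 4.35 ± 1.55, SE; edgeR adjusted p = 0.0425). Its call ended without animal 688, 690 or 694 (edgeR adjusted p = 0.154, 0.102 and 0.137), and its log2 fold change ran from 3.12 without 690 to 5.57 without 687. NPY was at 0.83, 0.67, 1.15, 10.2 and 0.37 CPM in pons and at most 0.30 CPM in cerebellum, so 694 was far above the rest and the groups did not overlap (log2 4.70; 6.38 without 687 and 3.76 without 694). PDYN, prodynorphin, was at 3.15, 7.07, 11.0, 54.3 and 1.82 CPM in pons and at 0.44 to 1.86 CPM in cerebellum (log2 2.60 ± 0.49, SE; edgeR adjusted p = 0.00271). TAC1, which encodes substance P, was highest in 690 and 694 (37.8 and 30.4 CPM; log2 2.26), and its call ended without 688 or 690 (edgeR adjusted p = 0.109 and 0.102). TAC1 was at 2.87 without 687 and 1.54 without 694. PENK, proenkephalin, was at 2.25, 13.1, 44.0, 24.5 and 8.59 CPM in pons and at 69.2, 182, 140, 49.1 and 293 CPM in cerebellum, without overlap (log2 -3.32 ± 0.71, SE; edgeR adjusted p = 0.00509; -3.95 without 694).

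Receptors for monoamines and acetylcholine were mixed. Of 25 monoamine receptors tested, 7 were called higher in pons and 2 higher in cerebellum, together 36% against 32.3% of all genes, so the share is near the background. HTR7, a serotonin receptor, was at 2.09, 2.85, 3.34, 3.49 and 0.51 CPM in pons and at most 0.12 CPM in cerebellum (log2 4.53 ± 0.42, SE). ADRA1A (log2 4.16), DRD2 (2.78) and HTR6 (1.56) were also called higher in pons, and HTR5A (-1.96) higher in cerebellum. Of 12 acetylcholine receptors tested, 6 were called higher in pons, among them CHRNA7 (2.79), CHRNA6 (2.98) and CHRNA4 (2.12), and 3 higher in cerebellum. The muscarinic receptor CHRM4 had the largest difference, with 18.5, 20.2, 21.4, 21.4 and 23.1 CPM in cerebellum and 0.12, 0.22, 0.64, 1.42 and 0.12 CPM in pons (log2 -5.77 ± 0.56, SE; edgeR adjusted p = 0.000158; -6.44 without 694).

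Of 26 genes of axons and firing tested, 10 were called higher in cerebellum and 5 higher in pons. Together these are 57.7% of the genes tested, against 32.3% of all genes. NEFM, a neurofilament of thick axons, was at 1438, 1547, 6224, 388 and 201 CPM in pons and at 302, 301, 306, 196 and 278 CPM in cerebellum. Pons 690 was highest and pons 699 lay within the cerebellar range. NEFM and NEFL were called higher in pons (log2 1.89 ± 0.64 and 1.37 ± 0.47, SE; edgeR adjusted p = 0.0366 and 0.0365). Both calls ended without animal 687, 688, 690 or 694 and strengthened without 699, to log2 2.46 and 1.82. NEFH and INA, filaments of the same kind, were not called (log2 1.00 and -0.58). Channels were called in both directions. Those higher in cerebellum included SCN2A, a sodium channel of thin axons (log2 -3.17), and KCNC1, a channel of fast firing (-2.97). Higher in pons were KCNA4, a potassium channel (log2 2.49), SCN9A, a sodium channel (2.85), and KCNC2, of the same family as KCNC1. The call of SCN9A ended without animal 688 or 694 (edgeR adjusted p = 0.0789 and 0.0618), and that of KCNA4 without 694 (edgeR adjusted p = 0.0525). KCNC2 was at 77.1, 34.9, 14.6, 50.3 and 10.8 CPM in pons and 1.78 to 6.69 CPM in cerebellum (log2 3.10).

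Genes of most neurons, in a list of 12 chosen after the data were seen, were mostly higher in cerebellum. Of the 12, 8 were called higher in cerebellum and 0 higher in pons, against 12.5% and 19.9% of all genes. Their median log2 was -1.34. The list holds SNAP25, already named among the most abundant called genes, so its count and median are no support for the set. SNAP25 was at 1546, 639, 707, 497 and 151 CPM in pons and at 2608, 2335, 2271, 2186 and 2283 CPM in cerebellum (log2 -2.04 ± 0.42, SE; edgeR adjusted p = 0.00414). RBFOX3 (NeuN), which marks most neurons but not Purkinje cells, was at log2 -3.92. Without animal 699 SYP was at -0.95, and its call ended. UCHL1 and MAP2 were not called (log2 0.33 and -0.27). As a mean of log2(CPM + 1) on plain library totals, the list stood at 7.85, 7.25, 7.66, 7.81 and 6.11 in pons and at 8.87 to 9.12 in cerebellum, with 699 the lowest.

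Myelin genes were nearly all higher in pons. Of 26 tested, 25 were called higher in pons and 1, TSPAN2, higher in cerebellum, with a median log2 fold change of 3.09. MBP was at 36120, 32670, 23420, 11000 and 48500 CPM in pons and at 1873, 5406, 4110, 1208 and 704 CPM in cerebellum (log2 3.66 ± 0.58, SE; edgeR adjusted p = 0.00121). MOG (log2 3.46), MAG (3.12), CNP (3.06) and the factors MYRF (3.29) and SOX10 (2.81), which switch myelin genes on, lay close to it. MOBP, at 3.75, was at 3.15 without 699. Animal 699 had the highest list score of the pons libraries (8.87) and the lowest of the cerebellum libraries (4.41), so the gap between its tissues was the widest. TSPAN2, at log2 -1.08, was called higher in cerebellum, and its call ended without 687 or 699 (log2 -0.86 and -0.85).

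Glia and vessels showed further differences toward pons. All 6 genes of oligodendrocyte precursors were called higher in pons, among them PDGFRA, a growth factor receptor (log2 2.07), and GPR17 (1.78). All 11 microglia genes were called higher in pons, with log2 values from 1.95 to 2.64 and a median of 2.27. CX3CR1, the receptor by which microglia sense neurons, was at 36.8, 53.1, 50.8, 44.2 and 36.2 CPM in pons and at 7.29, 11.6, 9.99, 8.62 and 3.56 CPM in cerebellum (log2 2.51 ± 0.19, SE; edgeR adjusted p = 7.57e-05). No microglia gene overlapped between the groups, and nor did 8651 of the 19182 genes tested. Of 14 astrocyte genes, 5 were called higher in pons and 0 higher in cerebellum. Together these are 35.7% of the list, near the 32.3% of all genes. They were GFAP (log2 2.38), AQP4, the water channel (2.23), SLC1A2, a glutamate transporter (1.85), S100B (1.61) and MLC1 (1.03). MLC1 dropped under the threshold without 688, 690 or 694. SLC1A3, the glutamate transporter of Bergmann glia, was not called and leaned toward cerebellum (log2 -0.88 ± 0.22, SE). Of 11 vascular and fibroblast genes, 6 were called higher in pons and 0 higher in cerebellum, against 19.9% and 12.5% of all genes. COL1A1, a fibrous collagen of the meninges, was at 76.5, 16.9, 14.2, 170 and 21.5 CPM in pons and at 5.30, 5.50, 7.38, 23.5 and 8.56 CPM in cerebellum, so 694 was highest in both tissues (log2 2.10).

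**Figure D4:**
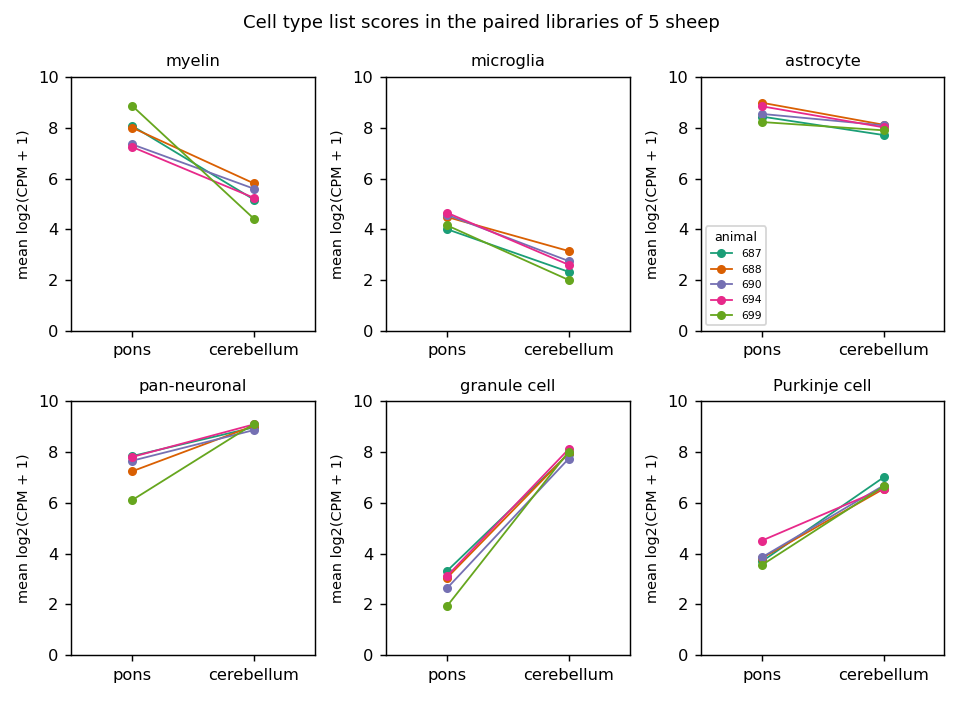
Each panel gives 1 gene list as the mean of log2(CPM + 1) on plain library totals, with a line joining the pons and the cerebellum library of each of the 5 animals. Myelin, microglia and astrocyte scores were higher in pons in 5 of 5 animals. Pan-neuronal, granule cell and Purkinje cell scores were higher in cerebellum in 5 of 5 animals. Pons 699 held the highest myelin and the lowest pan-neuronal score of the pons libraries. The pan-neuronal list was chosen after the data were seen.

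Choroid plexus, the tissue that secretes cerebrospinal fluid, was present in some libraries of both kinds. TTR, its transthyretin, was at 43.6, 42.0, 304, 1145 and 13.5 CPM in pons and at 1.81, 11.8, 605, 925 and 66.1 CPM in cerebellum. Animals 690 and 694 were high in both tissues, and KL and KCNJ13 followed the same animals. TTR was not called (log2 0.51; edgeR adjusted p = 0.671). OTX2 was the 1 gene called of the 8 tested for ependyma and choroid plexus, higher in cerebellum (log2 -1.10; -0.91 and no longer called without 690). FOXJ1, the factor of ciliated cells, was at 43.0 CPM in pons 690 and 30.1 CPM in pons 694 and at most 5.29 CPM elsewhere. The part of choroid plexus in the differences between the animals was not tested.

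Perineuronal nets, the matrix around fast neurons, had 6 of 12 genes called higher in pons and 0 higher in cerebellum. Together these are 50% of the list, against 32.3% of all genes. ACAN, aggrecan, was at 3.77, 6.89, 4.30, 4.03 and 3.12 CPM in pons and 0.43 to 0.69 CPM in cerebellum (log2 2.96 ± 0.23, SE; edgeR adjusted p = 7.97e-05). HAPLN2 (3.16), a link protein at nodes of myelinated axons, is a member of the myelin list too.

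Genes mutated in spinocerebellar ataxias, inherited diseases with loss of cerebellar function, were more often higher in cerebellum. Of 26 tested, 14 were called higher in cerebellum and 4 higher in pons, against 12.5% and 19.9% of all genes. CACNA1A (log2 -2.54), the main calcium channel of Purkinje cells, was on the cerebellar side. ELOVL5 (2.03), a fatty acid elongase, PPP2R2B (2.01), CCDC88C (2.05) and PDYN were those higher in pons. ATXN2, ATXN3, ATXN10 and TBP were not called, with log2 values from -0.13 to 0.38.

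The series title names reproductive function, and 14 of the 22 listed genes of sex steroid action and the reproductive axis in the table were tested. Of these, 6 were called higher in pons and 2 higher in cerebellum. ESR1 (log2 1.28) and PGR (1.70), the receptors for oestrogen and progesterone, were called higher in pons without overlap. ESR2, the second oestrogen receptor, was at 0.21, 0.33, 0.74, 1.62 and 0.33 CPM in pons and at 1.32, 1.45, 1.64, 3.98 and 2.22 CPM in cerebellum, and was called higher there (log2 -1.93 ± 0.32, SE; edgeR adjusted p = 0.00142). In each of the 5 animals pons had more ESR1 and less ESR2 than cerebellum. TACR3, the receptor for neurokinin B, was at log2 3.12, HSD17B1, a steroid dehydrogenase, at -1.48, and KISS1R was not called (-0.58).

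Immediate early genes, induced by recent activity, had 4 of 16 called higher in pons and 2 higher in cerebellum. Together these are 37.5% of the list, near the 32.3% of all genes. The mean of log2(CPM + 1) over the list was lower in pons in 5 of 5 animals, at 3.23 ± 0.38 (SD, n = 5) against 3.58 ± 0.29 (SD, n = 5) in cerebellum. EGR4 was at 15.0, 12.6, 7.08, 12.1 and 12.5 CPM in cerebellum and 0.04 to 0.71 CPM in pons (log2 -5.79; -6.45 without 694), and NPAS4 had a log2 fold change of -2.44. FOS (1.55), FOSB (1.16), EGR2 (1.59) and ARC (2.45) were higher in pons. JUN and EGR1 were not called (0.24 and -0.09). HBB, the haemoglobin chain that marks blood, reached 4.18 CPM in pons 688 and at most 0.30 CPM in cerebellum (log2 2.01), and its call ended without 687 or 688 (edgeR adjusted p = 0.0517 and 0.0512).

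**Figure D5:**
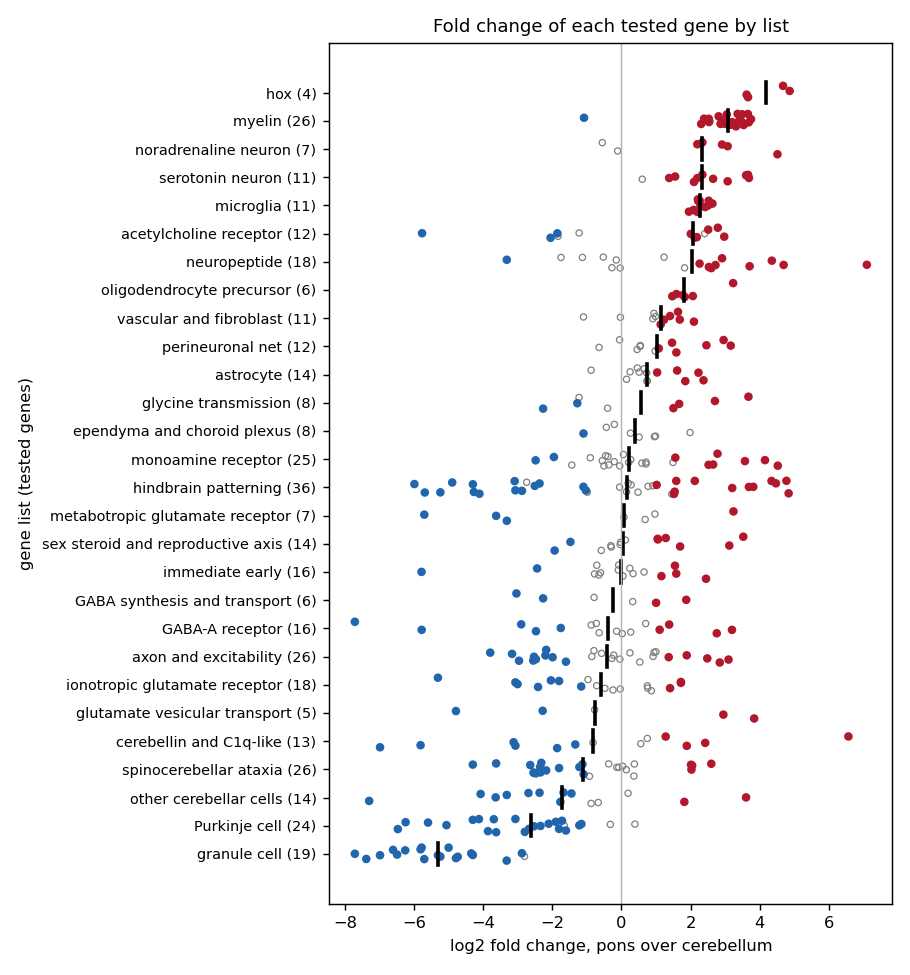
Each point is a tested gene of a list (y axis, lists with at least 4 tested genes, with their number) by its log2 fold change, pons over cerebellum (x axis). Red and blue points were called higher in pons and in cerebellum, open points were not called, and the black bar is the list's median, from -5.31 for granule cell genes to 3.09 for myelin genes and 4.17 for the 4 tested HOX genes.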

How the data were processed

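RNA of the 10 sheep libraries was extracted with TRIzol, treated with DNase I and made into stranded mRNA libraries, read as paired ends of 150 bases, per the labels. The reads were trimmed with Trimmomatic 0.39, aligned with STAR 2.7.5a and counted with Rsubread 2.20.0 in R 4.4.2, per the labels. The deposited table holds whole-number counts of reads for each gene and library, with no scaling by the authors and no pooling. How strand and multi-mapping reads were handled is not given in the sources used here, so near-identical copies and overlapping genes are uncertain. The table has 31304 entries, 12262 of them with a placeholder symbol. No sheep annotation or sequence was used here, so no positions or sequences are given.

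The count test was the quasi-likelihood test of edgeR 4.0.16 (R 4.3.3) with animal and tissue as terms, TMM scaling, edgeR's own filter on low counts and a prior count of 0.125. The SE was taken as the size of the log2 fold change divided by the root of the test's F. Genes high in only some pons libraries can fail the filter, and are then given by their values. A gene near 0 CPM in cerebellum passed it only where pons was high, so call counts of lists with such genes lean toward pons. The animal is the block because both tissues of a number come from 1 sheep. The correlation of same-animal deviations from the group means was -0.08 to 0.15. No batch is given in the labels for these libraries.

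The fit was tested on simulated counts with known changes. Alternatives were other scaling factors, filters, tools (DESeq2 1.42.0 and limma 3.58.1 with voom), no block, a test against the fold threshold, a prior count of 2, no placeholder entries and each animal left out. Added after seeing the data were both animals 694 and 699 left out, and no block with pons 699 left out. Named genes were, per direction, the 12 called genes of largest fold change with at least 10 CPM in the higher tissue, no overlap and no placeholder symbol, the 5 most abundant called genes without mitochondrial entries, and any member of the gene lists. Some genes that this rule covers are not reported here. The comparison and the lists were chosen with earlier results of these data known.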

Additional observations from a re-analysis of the deposited data

Results flagged for a closer look

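In 63 of the 478 groups of 5 libraries examined, 1 library stood apart from the other 4, its gap to the nearest being above Dixon's critical value of 0.71 of the group's range. For normally distributed values, chance alone flags about 1 group in 20. CPM values need not be so distributed, and some groups lie near 0 CPM, so the number flagged cannot be compared with that rate. The genes share libraries and lists, so the groups are not independent.

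Pons 690 was apart in 12 genes. Those of motor and cholinergic neurons were PRPH (383.5 CPM), SLC5A7 (202.4 CPM), SLC18A3 (69.6 CPM), CHAT (63.0 CPM) and ISL1 (8.60 CPM). SNCG (246.1 CPM), SST (214.4 CPM), NEFM (6224 CPM), HOXB5 (28.4 CPM), HOXB6 (4.52 CPM) and GBX2 (6.03 CPM) were high in the same library, as was SKOR2 (0.44 CPM).

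Pons 694 was apart in 13 genes and in the forebrain score, a mean of log2(CPM + 1) that stood at 0.67. Those of patterning and the midbrain were LHX9 (27.6 CPM), EN2 (26.5 CPM), OTX2 (15.3 CPM), PAX5 (15.3 CPM), TFAP2B (10.9 CPM), EVX2 (5.42 CPM) and EMX2 (2.29 CPM). TTR (1145 CPM) and KL (15.3 CPM) mark choroid plexus. GABRB2 (87.9 CPM), PDYN (54.3 CPM), NPY (10.2 CPM) and PLK5 (1.79 CPM) were the remaining genes.

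Pons 688 was apart in the interferon-stimulated score (4.77) and in IFIT1 (195.7 CPM), MX1 (128.2 CPM), MX2 (66.2 CPM), ISG15 (28.6 CPM) and RSAD2 (25.0 CPM), and also in GRIA4 (44.9 CPM). Pons 687 was apart in SLC17A7 (111.1 CPM) and GABRD (23.2 CPM). Pons 699 was highest in SLC6A3 (21.2 CPM) and HTR6 (13.7 CPM) and lowest in GPHN (15.9 CPM) and in the axon and excitability score (3.82).

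In the cerebellum 24 groups were flagged. Cerebellum 694 was highest in OTX2 (33.1 CPM), COL1A1 (23.5 CPM), SLC17A6 (13.4 CPM), COL22A1 (0.98 CPM), ARHGAP36 (0.40 CPM) and HOXA4 (0.063 CPM) and lowest in NEFM (196.2 CPM). Cerebellum 699 was highest in CALB2 (27.6 CPM), MEIS2 (8.32 CPM), ADCYAP1 (6.60 CPM), UTS2 (0.38 CPM) and the score of the remaining cerebellar cells (4.95). Cerebellum 690 was lowest in CBLN3 (751.4 CPM) and GABRD (165.4 CPM) and highest in CALCA (0.40 CPM) and CHAT (0.16 CPM). Cerebellum 687 was highest in MX1 (9.63 CPM), MX2 (3.72 CPM), ISG15 (1.17 CPM), CBLN2 (0.40 CPM) and EMX2 (0.033 CPM). Cerebellum 688 was highest in CTXND1 (1.29 CPM), SLC18A3 (0.064 CPM) and EVX2 (0.016 CPM).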

How the results depend on the processing

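No gene called in the report changed sign under any of the 17 alternatives, and 31 of the 34 genes named by size or abundance stayed called in all of them. The number of calls lay between 5966 and 6199 with 1 animal left out (3526 to 3753 higher in pons, 2248 to 2611 higher in cerebellum). The fit without the replicate block gave 6238 calls, and 1 forebrain gene was then called, also with pons 699 left out. Testing against the fold threshold (glmTreat) gave 3702 calls, 2281 higher in pons and 1421 higher in cerebellum, since it asks for more than a difference from 0.

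Under that test the calls per list were 7 for the remaining cerebellar cells, 5 for neuropeptides, 4 for sex steroid action, 3 for immediate early genes, 1 each for cholinergic, GABA and vascular genes, and 0 for ependyma and blood. Of the lists chosen after the data were seen, interferon-stimulated genes had 8, genes of most neurons 5 and elongation factors 1. With no low-count filter there were 15 for HOX, 19 for neuropeptides, 10 for cholinergic, 9 for noradrenaline and 1 for forebrain genes. DESeq2 gave 12, 18, 11, 9 and 1 for the same lists, 14 for acetylcholine receptors and 2 for ependyma. A filter of 1 CPM in 5 libraries left 2 for HOX, 6 for neuropeptides, 5 each for serotonin and acetylcholine receptors, 3 for noradrenaline, 1 for cholinergic genes and 0 for blood. Ependyma had 2 with voom and 0 with upper quartile factors. Without animals 694 and 699 there were 12 for HOX, 6 for serotonin, 12 for interferon-stimulated genes and 0 for ependyma. Those animals were chosen by their low HOX values, so that HOX count is no support for the set. The low-count filters change which genes are tested; the cause of the other changes was not tested.

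With 1 animal left out, calls ran from 1 to 6 for cholinergic, 1 to 3 for GABA, 5 to 11 for neuropeptide, 0 to 2 for ependyma and 0 to 1 for blood genes. Of the 290 list genes called, 44 lost their call without 1 of the animals. The 5 pairs, the uneven pons libraries and genes high in only 1 or 2 of them limit what can be called.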

Other observations

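Interferon-stimulated genes, which cells switch on in response to antiviral signals, were chosen as a list after the data were seen. Of 24 tested, 18 were called higher in pons and 0 higher in cerebellum, against 19.9% and 12.5% of all genes. The list holds genes that stood out in pons 688, such as MX1 and IFIT1, so its count is no support for the set. There were 8 when tested against the fold threshold (glmTreat), 12 without animals 694 and 699 and 14 without 690. MX1, an antiviral GTPase, was at 15.0, 128, 23.0, 13.7 and 12.6 CPM in pons and at 9.63, 4.75, 3.52, 3.59 and 4.35 CPM in cerebellum (log2 2.26 ± 0.55, SE; edgeR adjusted p = 0.00900). IFIT1 was at 11.9, 196, 19.1, 11.3 and 15.3 CPM in pons and at 1.14 to 7.46 CPM in cerebellum. Pons 688 was far above the other pons libraries for both genes, and the cerebellum of the same animal was not, with a list score of 2.04 against 4.77 in its pons. The other 4 pons libraries scored 2.72 to 3.11 and the cerebellum libraries 1.97 to 2.39. Without animal 688, IFIT1 had a log2 fold change of 2.42 and ISG15 one of 2.07, and without 687 they were at 3.81 and 3.56. The calls of MX2, RSAD2, ISG15 and BST-2B ended when 1 of the other animals was left out.

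The 71 ribosomal protein genes tested had log2 fold changes from -0.62 to 0.71, with a median of -0.06. EEF1A1, EEF1A2 and EEF2, given above, were the 3 called of 6 elongation factors, while EEF1B2, EEF1D and EEF1G had log2 values of -0.34, 0.17 and -0.39. This list was chosen after the data were seen and holds those 3 abundant called genes, so its count is no support for the set. Of 40 collagen chains, 24 were called higher in pons and 4 higher in cerebellum. Of 80 potassium channel subunits, 22 were called higher in pons and 34 higher in cerebellum. Over all genes tested, 19.9% were called higher in pons and 12.5% higher in cerebellum.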
